A study of Mus musculus with 12 samples.

Results

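The 9 genes Ptk7, Celsr2, Lrp5, Dnm3, Rgs12, Igsf9b, Hspg2, Filip1l and Ptpn14 were chosen by name among 55414 gene records of splenic CD4+ T cells, because their RNA was lower in stimulated cells of mice with ligature-induced periodontitis (LIP) than in stimulated cells of control mice (CTL). The comparison of LIP with CTL on day 2 therefore chose them, and its values are given below as a description without a test. The word "lowered" applies to that comparison. Of the 7 genes with enough counts on both days to be tested, 5 had a higher RNA level in stimulated than in fresh cells. This holds for the average over both groups of mice. The cells came from wild-type male BALB/c mice aged 18 weeks, the LIP mice with silk ligatures around upper molars and the CTL mice anesthetized without ligatures. CD4+ T cells were purified from spleen and taken either fresh (day 0) or after a culture that lasted until day 2, in which IL-2 and antibodies to TCRβ and CD28 stimulated them. Each of the 4 groups had 3 libraries of RNA. The treatment label of a day 2 library names anti-CD28 for 2 libraries, anti-CD29 for 2 and anti-CD30 for 2, with 1 CTL and 1 LIP library under each name, whereas the protocol names anti-CD28 alone. The labels do not say whether the libraries of a group came from separate mice, so the p-values measure the spread between these libraries, which may be technical.

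Wnt proteins signal in 2 main ways. In the canonical branch they bind Frizzled together with LRP5 or LRP6 and stabilise β-catenin, which acts with the factors TCF1 and LEF1 that also shape T cell identity. In the planar cell polarity branch, surface proteins that include the CELSR cadherins, VANGL proteins and PTK7 orient cells and their cytoskeleton without β-catenin. Among the 9 genes, Ptk7 and Celsr2 belong to the polarity branch and Lrp5 to the canonical branch, and the other 6 encode proteins of membrane traffic, G protein signalling, adhesion, matrix, the actin cytoskeleton and tyrosine dephosphorylation. None of the 9 is a defining gene of CD4+ T cells, although PTK7 is a known surface marker of human CD4+ T cells that have recently left the thymus.

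The libraries held 6249018 to 7845676 counts on day 0 and 8691699 to 12866718 on day 2, and levels are given as CPM, counts scaled to library totals that were adjusted with TMM (trimmed mean of M values) factors, which leaves the sum over all genes unequal between libraries. Between 0.269 and 0.452 CPM corresponded to 3 counts, the upper limit that a count of 0 leaves when counting error alone is considered. The T cell label held, with Cd4 at 422 to 645 CPM and Cd8a at 0.106 to 2.25 CPM across the 12 libraries. On day 2, library LIP 90 stood apart from LIP 96 and LIP 97 in the expression of all genes. Its score on the first principal component, which carried 48.1% of the variance, was -8.11, against 39.4 and 44.9 for the other LIP libraries and -34.9 to -18.1 for the CTL libraries. For the 9 genes LIP 90 lay with the other LIP libraries and below every CTL library. The genes were chosen on these libraries, so nothing is read from this position.

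The genes lie on 8 chromosomes of the GRCm39 assembly, the build of the deposited counts, and upstream windows of 7 of them were found in a RefSeq promoter table (built on GRCm38.p6), with no window for Lrp5 and Igsf9b. All 9 windows of these 7 genes (Rgs12 and Filip1l have 2 each) matched GRCm39 once, over the 250 bases before the start that the table gives. That start is not always the one of GENCODE: 3 of the 9 windows (Celsr2, Dnm3 and the first of Filip1l) lay wholly in exons of the GENCODE annotation, so the GC contents and motif counts include exon sequence. The windows had a median GC content of 68.4%, against 52.4% over all 32851 windows of the table, and 8 of the 9 lay above that median. The median of the 6 windows not wholly exonic was 68.6%. The 4 stretches below, cut where GENCODE places an exon, show starts of genes that differed in their course with stimulation. Their full windows had GC contents of 64% (Ptk7), 55.6% (Rgs12, near the median of all windows), 70% (Hspg2) and 80.8% (Ptpn14). For Ptk7 and Rgs12 the stimulated libraries lay above the fresh ones in both groups of mice. Hspg2 had more counts in every stimulated than in every fresh CTL library, and Ptpn14 was lower on day 2 than on day 0 in LIP cells. The stretches lie at chr17:46940447-46940680 (minus strand, Ptk7), chr5:35156172-35156400 (plus strand, at an internal start of Rgs12), chr4:137195864-137196078 (plus strand, Hspg2) and chr1:189460215-189460445 (plus strand, Ptpn14). Capitals mark GGGCGG (the GC box bound by SP factors) or its complement on the other strand, and CTTTGA (the core bound by TCF and LEF factors).
Ptk7: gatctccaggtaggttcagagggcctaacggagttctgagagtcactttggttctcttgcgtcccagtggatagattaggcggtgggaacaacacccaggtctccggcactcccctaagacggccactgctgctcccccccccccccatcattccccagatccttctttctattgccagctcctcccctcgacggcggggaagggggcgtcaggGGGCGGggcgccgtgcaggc
Rgs12: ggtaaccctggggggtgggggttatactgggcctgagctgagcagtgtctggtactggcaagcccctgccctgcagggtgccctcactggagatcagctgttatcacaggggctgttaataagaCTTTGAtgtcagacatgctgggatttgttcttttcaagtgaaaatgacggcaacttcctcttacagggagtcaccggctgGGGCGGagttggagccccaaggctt
Hspg2: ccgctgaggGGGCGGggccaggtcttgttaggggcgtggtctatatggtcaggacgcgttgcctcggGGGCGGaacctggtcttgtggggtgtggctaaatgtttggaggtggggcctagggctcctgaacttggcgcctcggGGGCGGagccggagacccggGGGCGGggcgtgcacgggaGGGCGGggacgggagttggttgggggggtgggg
Ptpn14: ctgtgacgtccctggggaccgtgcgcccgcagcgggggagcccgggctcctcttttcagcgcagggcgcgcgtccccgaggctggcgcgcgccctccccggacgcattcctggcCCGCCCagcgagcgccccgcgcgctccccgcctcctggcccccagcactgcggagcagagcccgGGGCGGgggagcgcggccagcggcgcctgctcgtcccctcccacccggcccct

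In the full windows of 250 bases, searched on both strands, GGGCGG occurred in 5 of the 9 windows of these genes, and in 32.7% of all windows. All 5 were among the 6 windows not wholly exonic. CTTTGA occurred in 1 of 9 (13.8% of all windows), the NFAT core GGAAAA in 1 of 9 (20.4%) and the AP-1 site TGANTCA in 1 of 9 (6.75%). In the stretches printed, no base belonged to matches of more than 1 motif. A match gives the letters only, and says nothing of whether a factor was bound.

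Ptk7 encodes a receptor tyrosine kinase without catalytic activity that takes part in planar cell polarity. The gene spans chr17:46875376-46940446 on the minus strand with 20 exons. It was all but absent from fresh cells: the CTL libraries held 0, 1 and 0 counts and the LIP libraries 0, 2 and 0. After stimulation its level was 16.8, 21.0 and 16.5 CPM in CTL cells and 7.43, 5.99 and 6.35 CPM in LIP cells. The groups of day 2 did not overlap, and LIP cells held 36.4% of the CTL level (log2 fold change -1.46, SE 0.18). Summed over libraries, the ratio of day 2 to day 0 was 406 in CTL cells (95% interval 72.6 to 16077) and 72.4 in LIP cells (19.8 to 602). The intervals cover counting error alone and are wide because fresh cells held so few reads.

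The polarity cadherin Celsr2 (chr3:108298165-108323397, minus strand, 34 exons), a protein that crosses the membrane 7 times and is related to Drosophila Flamingo, was already present in fresh cells. On day 0 it stood at 6.33, 8.07 and 5.79 CPM in CTL and at 5.92, 5.77 and 4.81 CPM in LIP libraries. On day 2 the CTL libraries reached 16.7, 20.7 and 18.9 CPM, whereas the LIP libraries were at 7.88, 7.96 and 7.38 CPM, each above every fresh LIP library. Thus CTL and LIP cells overlapped when fresh and were apart after stimulation (log2 fold change on day 2 of -1.28, SE 0.16). The LIP libraries of day 2 were close to the highest fresh CTL library, so that across both groups the days overlapped.

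Lrp5, the co-receptor of Frizzled for canonical Wnt ligands, lies at chr19:3634821-3736643 on the minus strand and has 23 exons. Fresh cells held 5.57, 7.58 and 7.50 CPM (CTL) and 5.65, 5.49 and 6.81 CPM (LIP). Stimulated cells held 43.8, 50.8 and 47.7 CPM in the CTL group and 28.7, 25.7 and 23.7 CPM in the LIP group. Every stimulated library was above every fresh one, and the LIP level was 54.9% of the CTL level (log2 fold change -0.87, SE 0.13), a smaller gap than for the polarity genes.

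**Figure D1:**
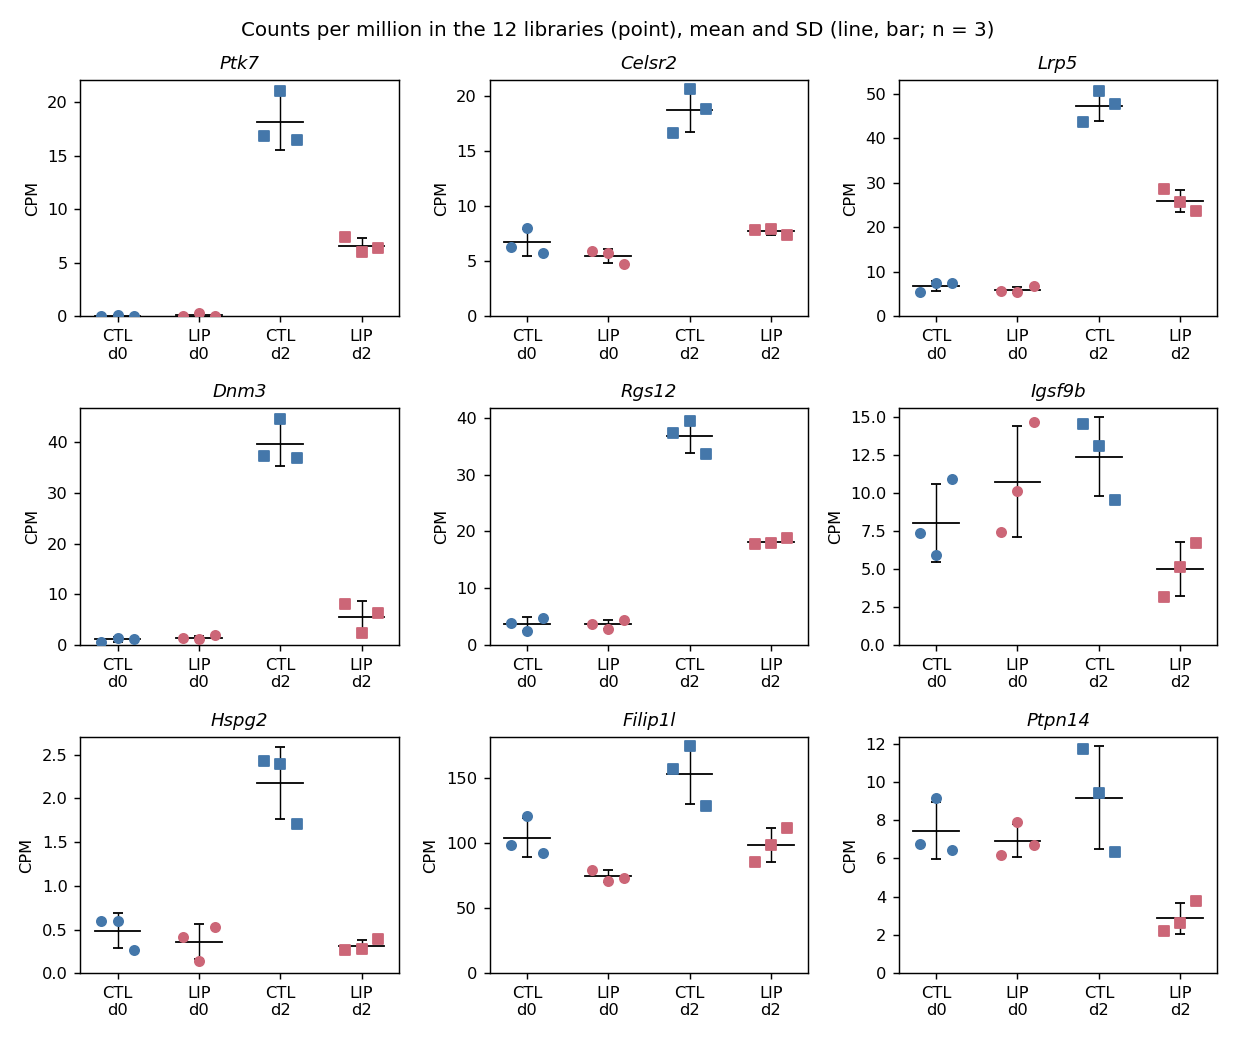
Level of each of the 9 genes in the 12 libraries, in CPM (vertical axis, linear from 0), for CTL (blue) and LIP (red) on day 0 (d0, circles) and day 2 (d2, squares). Points are libraries, and the line and bar give the mean and SD of 3 libraries; on day 2 all 3 LIP points lie below all 3 CTL points in each panel.

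Dnm3, a dynamin, encodes a GTPase that pinches vesicles off membranes and is best known from neurons and testis. The gene extends over chr1:161810022-162305616 on the minus strand. From 0.603, 1.44 and 1.18 CPM (CTL) and 1.38, 1.13 and 1.87 CPM (LIP) in fresh cells, it rose to 37.3, 44.5 and 36.9 CPM in stimulated CTL cells, but only to 8.15, 2.34 and 6.35 CPM in stimulated LIP cells. With Hspg2 this was the widest gap of the 9 genes on day 2 (log2 fold change -2.83, SE 0.35, or 14.2% of the CTL level), and the LIP libraries also differed among themselves, with LIP 96 lowest. Within the gene, on the other strand, lies Dnm3os, the non-coding host transcript of miR-199a-2 and miR-214. Dnm3os had a like course, from mean levels of 0.252 (CTL) and 0.414 CPM (LIP) on day 0 to 11.4 and 2.12 CPM on day 2. In the stimulated libraries it was counted at 11.5, 12.7 and 10.1 CPM in CTL and 3.58, 0.843 and 1.94 CPM in LIP cells, so LIP 96 was again lowest. The library kit keeps the strand, but the strand setting of the counting is not given in the sources used here, and the part of antisense reads in either value was not tested.

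Rgs12 (chr5:35106715-35196988, plus strand, 17 exons) encodes a regulator that speeds GTP hydrolysis by Gα subunits and so shortens signals of G protein-coupled receptors. It stood at 3.92, 2.41 and 4.74 CPM in fresh CTL cells and at 3.72, 2.81 and 4.41 CPM in fresh LIP cells. In stimulated cells the CTL libraries held 37.4, 39.5 and 33.6 CPM and the LIP libraries 17.8, 18.0 and 18.8 CPM. The LIP values on day 2 were tightly grouped at 49.4% of the CTL level (log2 fold change -1.03, SE 0.13), well apart from both the fresh cells and the CTL cells.

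Igsf9b, an adhesion protein of the immunoglobulin superfamily known from inhibitory synapses, spans chr9:27210500-27268842 on the plus strand. Its fresh levels were scattered, at 7.38, 5.90 and 10.9 CPM (CTL) and 7.44, 10.1 and 14.7 CPM (LIP), with overlapping groups. On day 2 it was counted at 14.6, 13.1 and 9.54 CPM in CTL and at 3.13, 5.15 and 6.74 CPM in LIP libraries. The LIP libraries of day 2 thus lay below the CTL libraries (log2 fold change -1.34, SE 0.30) and also below all 3 fresh LIP libraries.

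Hspg2 encodes perlecan, the large heparan sulfate proteoglycan of basement membranes, which can bind growth factors. It lies at chr4:137196079-137298231 on the plus strand, has 97 exons and was the weakest of the genes per transcript length, so its counts are given. Fresh CTL libraries held 4, 5 and 2 counts and fresh LIP libraries 3, 1 and 4. Stimulated CTL libraries held 23, 20 and 15 counts, and each of the 3 stimulated LIP libraries held 3, or 0.269, 0.281 and 0.389 CPM. Hspg2 therefore stayed near the counting limit except in stimulated CTL cells, where its mean was 2.17 CPM (SD 0.408). The ratio of day 2 to day 0 was 4.46 in CTL cells (95% interval 2.32 to 9.43) and 0.831 in LIP cells (0.285 to 2.48), counting error only. The log2 fold change of LIP against CTL on day 2 was -2.79 (SE 0.40).

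Filip1l, a relative of the filamin A-interacting protein, was the most abundant of the 9 genes per transcript length. It lies on the plus strand at chr16:57173135-57421279, where it overlaps Cmss1 on the other strand. Fresh CTL cells held 99.0, 121 and 92.9 CPM and fresh LIP cells 79.6, 70.6 and 73.4 CPM. After stimulation the libraries held 157, 174 and 129 CPM (CTL) and 85.4, 98.4 and 112 CPM (LIP). The LIP libraries were below the CTL libraries on both days, and the gap on day 2 was the smallest of the 9 (log2 fold change -0.65, SE 0.16). Cmss1 went the other way on day 2, with a mean of 12.2 CPM in CTL and 19.1 CPM in LIP cells.

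Ptpn14, a cytosolic tyrosine phosphatase with a FERM domain that binds the Hippo effector YAP, lies at chr1:189460446-189608892 on the plus strand. Fresh cells held 6.78, 9.15 and 6.45 CPM (CTL) and 6.20, 7.88 and 6.68 CPM (LIP), with no separation of the groups. Stimulated CTL cells held 11.7, 9.43 and 6.36 CPM and stimulated LIP cells 2.24, 2.62 and 3.76 CPM. The CTL libraries of the 2 days overlapped, whereas the LIP libraries of day 2 were below every fresh library (log2 fold change of LIP against CTL on day 2 of -1.70, SE 0.31).

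On day 2, then, the LIP libraries were below the CTL libraries in all 9 genes, and 7 of the 9 had a log2 fold change under -1, with a median of -1.34. The median over all 14041 genes tested was -0.01, the LIP libraries all lay below the CTL libraries in 10.5% of these genes, and 2.09% were lower DEGs (differentially expressed genes, with a log2 fold change beyond 1 and an unadjusted p under 0.05). Since this comparison chose the genes, nothing is read from these counts. Leaving out any 1 library kept the direction of all 9, as it must where every LIP library is below every CTL library. In bulk RNA, fewer cells that express a gene and less RNA per cell cannot be told apart.

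Markers of other cell states differed between the groups of day 2 too, and their part in the values above was not tested. On day 2, edgeR called none of these markers at an adjusted p of 0.05. The summed level of 8 activation markers was 8061 to 8280 CPM in CTL and 8647 to 8812 CPM in LIP libraries. Of these, 5 were higher and 3 lower in LIP cells (median log2 fold change 0.07), and the 1 with an unadjusted p under 0.05, Cd44, was lower (-0.48). The 7 naive T cell markers summed to 1334.5 to 1357 CPM in CTL and 1431 to 1991 CPM in LIP libraries, with 4 higher and 3 lower in LIP cells (median 0.25). Of the 7, 2 had an unadjusted p under 0.05, both higher in LIP cells. Without LIP 90, edgeR called 1 activation marker lower and 1 higher, and 2 naive markers higher. It then also called Cd3d (log2 fold change 0.49), Cd8b1 (1.04) and Cox6a2, a gene of plasmacytoid dendritic cells, higher in LIP cells. Cox6a2 was at 0.0896, 4.68 and 1.81 CPM in the LIP libraries and at most 0.106 CPM in the CTL libraries, and Siglech, a defining marker of those cells, had 0 counts in all 3 LIP libraries. Prss2, the 1 of 9 pancreatic acinar markers that was tested, was a lower DEG (-1.09), and the 9 summed to 5.22 to 10.2 CPM in CTL and 2.98 to 6.46 CPM in LIP libraries. Of the 4 regulatory T cell markers, Foxp3 (log2 fold change -0.44), Ikzf2 (-0.46) and Nrp1 (-1.06) had all LIP libraries below all CTL libraries on day 2, Ctla4 (-0.03) did not, and 0 of the 4 passed an adjusted p of 0.05 in edgeR (3 had an unadjusted p under 0.05, DESeq2 called 1, and edgeR called 3 without LIP 90). Their summed level was 282 to 389 CPM in CTL and 268 to 311 CPM in LIP libraries. The 6 B cell markers summed to 20.8 to 61.3 CPM in CTL and 21.7 to 67.7 CPM in LIP libraries. All 6 were higher in LIP cells (median log2 fold change 1.17), 0 with an unadjusted p under 0.05, and without LIP 90 the median was 1.77 and 1 was called. The 7 myeloid markers summed to 0.836 to 1.06 CPM in CTL and 1.34 to 2.46 CPM in LIP libraries, and the 5 platelet markers to 0.634 to 1.14 and 1.43 to 2.62 CPM, both without overlap of the groups. Among 9 markers of endothelial and stromal cells, which are known to make perlecan (Hspg2), Col3a1 and Dcn had 0 counts in all stimulated libraries, Cdh5 had a mean of 0.0379 CPM in CTL and 0.0730 CPM in LIP cells, and the sum, 60.9 to 79.1 CPM in CTL and 51.3 to 72.7 CPM in LIP, came almost wholly from Pecam1, which T cells express.

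The freshly purified cells of day 0 came from libraries that the choice of the genes did not use. Of the 9 genes, 7 held enough counts to be tested there (Ptk7 and Hspg2 did not). None of the 7 passed an adjusted p of 0.05 in edgeR's quasi-likelihood test (1 had an unadjusted p under 0.05, as had 13.9% of all genes), and over all 14064 genes 60 passed, or 0.427%. DESeq2 called 1 of the 7. Filip1l alone had all LIP libraries below all CTL libraries, as had 9.85% of all genes, with a log2 fold change of -0.48 (SE 0.10, adjusted p = 0.0671). Its adjusted p ranged from 2.43e-05 to 0.415 over the alternatives and was 0.00507 without CTL 94. No difference was detected for the others: LIP cells differed in Celsr2 by -0.29 (SE 0.21, adjusted p = 0.580), in Lrp5 by -0.20 (SE 0.21, adjusted p = 0.703) and in Ptpn14 by -0.11 (SE 0.21, adjusted p = 0.848) on the log2 scale. Dnm3 and Igsf9b leaned upwards in LIP cells, by 0.41 (SE 0.43, adjusted p = 0.704) and 0.42 (SE 0.27, adjusted p = 0.525). For Rgs12 the difference was 0.00 (SE 0.31, adjusted p = 0.998). Among the marker lists, edgeR called 1 gene on day 0, the activation marker Cd69, at 215 to 387 CPM in CTL and 152 to 176 CPM in LIP libraries (log2 fold change -0.90, adjusted p = 0.0375), while DESeq2 called 2 activation markers and 1 NK cell marker. Cd69 was the only activation marker that was lower. The other 7 of the 8 were higher in LIP cells, 1 of them with an unadjusted p under 0.05 in edgeR (median of the 8, 0.24). The 9 pancreatic acinar markers summed to 0.452 to 0.602 CPM in fresh CTL and 0.138 to 12.5 CPM in fresh LIP libraries, and the 5 NK cell markers to 47.5 to 57.8 and 39.1 to 45.0 CPM. Of the 4 NK cell markers tested, however, 3 were higher and 1 was lower in LIP cells (median log2 fold change 0.57). The lower one alone had an unadjusted p under 0.05 in edgeR. The part of these in the values of day 0 was not tested.

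**Figure D2:**
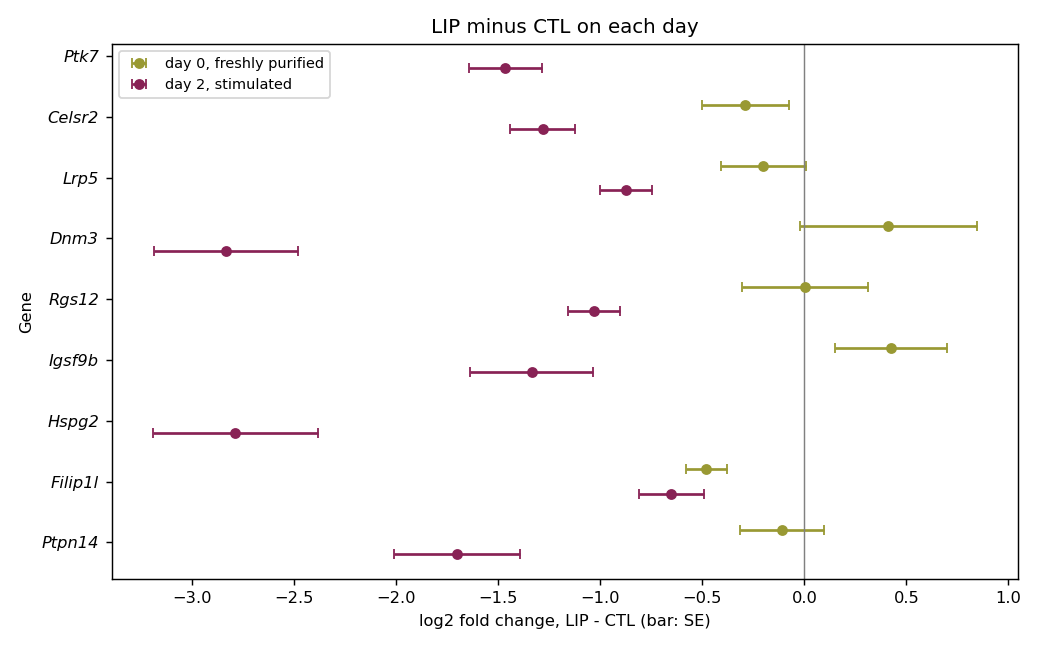
Log2 fold change of LIP minus CTL (horizontal axis) for each gene (vertical axis) in freshly purified cells of day 0 (olive) and stimulated cells of day 2 (purple), with bars of 1 SE from edgeR fits of 3 against 3 libraries. Day 2 values run from -2.83 to -0.65 and chose the genes, day 0 values lie between -0.48 and 0.42, and Ptk7 and Hspg2 had too few counts on day 0.

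Stimulation was tested as the mean over CTL and LIP cells of day 2 minus day 0, a contrast that does not contain the difference between LIP and CTL. No cells were cultured without stimulation, so stimulation and the culture itself cannot be told apart. Of the 7 genes with enough counts on both days, 5 rose (adjusted p under 0.05) and 1 fell, where 41.2% of the 12946 genes tested on both days rose and 38% fell. In 3 of the 7, Lrp5, Dnm3 and Rgs12, all 6 stimulated libraries were above all 6 fresh ones, as in 31.1% of those genes. Lrp5 rose by 2.45 on the log2 scale (SE 0.10, adjusted p = 1.10e-10), Rgs12 by 2.82 (SE 0.14, adjusted p = 5.43e-10) and Dnm3 by 3.54 (SE 0.29, adjusted p = 5.86e-08). Ptk7 and Hspg2 entered the fit only through libraries of day 2, so that a test of their rise is no support, and the ratios given above describe them. All 8 activation markers rose as well (median log2 fold change 4.49), and 6 of 7 naive T cell markers fell (median -1.85). Markers of other cells were mostly too weak to test on both days. Over libraries of both groups, the summed level of the B cell markers was 96.7 to 127 CPM on day 0 and 20.8 to 67.7 CPM on day 2. Ighm, the only B cell marker tested on both days, fell by 1.90 (SE 0.20). In the fit of all 12 libraries, 5 of the 6 B cell markers were higher on day 2 and 1 lower (median log2 fold change 2.06). The summed level of the NK cell markers was 39.1 to 57.8 CPM and then 2.75 to 9.18 CPM, and that of the myeloid markers 4.82 to 12.3 CPM and then 0.836 to 2.46 CPM. Their part in the changes of the genes was not tested.

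The mean changes of the other genes were smaller. Celsr2 rose by 0.98 (SE 0.12, adjusted p = 4.32e-06) and Filip1l by 0.48 (SE 0.10, adjusted p = 0.000444), the latter without a call under upper-quartile normalization (adjusted p = 0.118). Ptpn14 fell by 0.50 (SE 0.19, adjusted p = 0.0245), and its call was lost with an offset for length (adjusted p = 0.119) and without CTL 89 or LIP 93 of day 0 or CTL 97, LIP 90 or LIP 96 of day 2 (adjusted p up to 0.0728). Igsf9b had a mean change of -0.25 (SE 0.22, adjusted p = 0.311).

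These means combine unlike courses in CTL and LIP cells, which are given side by side without a test because their difference is tied to the comparison that chose the genes. In CTL cells the log2 change from day 0 to day 2 was 5.15 for Dnm3 (SE 0.40), 3.33 for Rgs12 (SE 0.20), 2.77 for Lrp5 (SE 0.15), 2.12 for Hspg2 (SE 0.44) and 1.47 for Celsr2 (SE 0.17). In LIP cells the same genes changed by 1.92 (SE 0.42), 2.31 (SE 0.20), 2.12 (SE 0.15), -0.25 (SE 0.62) and 0.49 (SE 0.18). In these genes, the LIP values were the smaller ones. Filip1l changed by 0.56 (SE 0.14) in CTL and 0.40 (SE 0.14) in LIP cells, from fresh levels that were already apart. The remaining pair had opposite signs: Igsf9b changed by 0.62 (SE 0.31) in CTL and -1.13 (SE 0.32) in LIP cells, and Ptpn14 by 0.30 (SE 0.25) in CTL and -1.29 (SE 0.28) in LIP cells. Counted by library over the 7 genes with enough counts on both days, the stimulated libraries were above the fresh ones in 5 in CTL cells (38.1% of all genes tested on both days) and overlapped in 2 (Igsf9b and Ptpn14). In LIP cells they were above in the same 5 (38.9%) and below in 2 (Igsf9b and Ptpn14; 35.9%). Because the values of day 2 chose the genes, nothing is read from these counts.

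**Figure D3:**
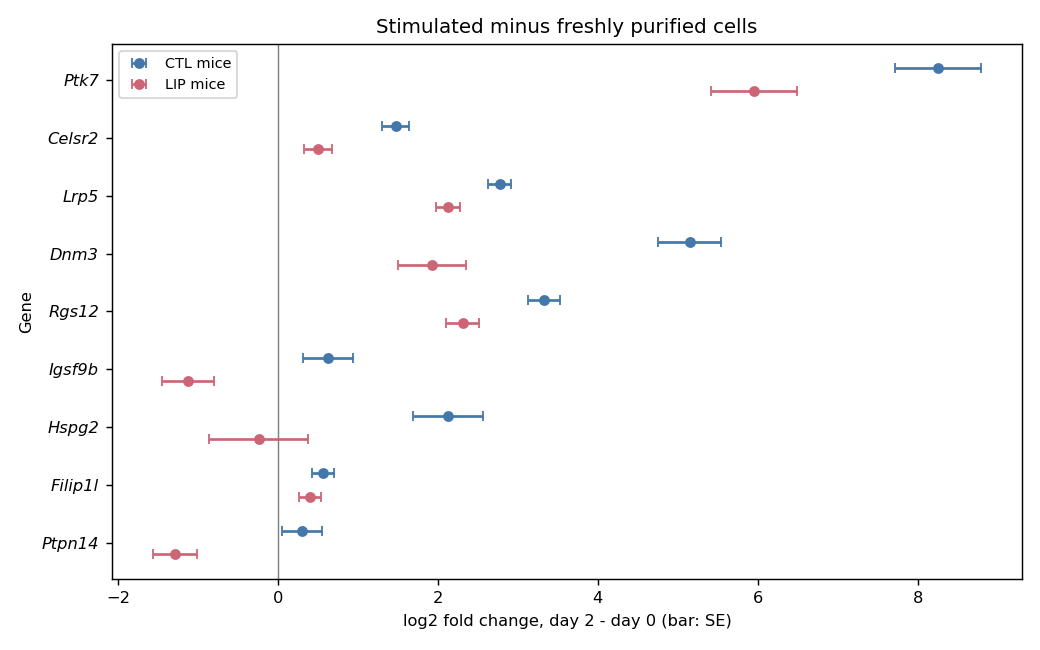
Log2 fold change of day 2 minus day 0 (horizontal axis) for each gene (vertical axis) in CTL (blue) and LIP cells (red), with bars of 1 SE from an edgeR fit of all 12 libraries. Each LIP point lies to the left of its CTL point, and for Igsf9b, Hspg2 and Ptpn14 the LIP point is below 0; Ptk7 starts from 1 (CTL) and 2 counts (LIP) on day 0, so that its points depend on the prior count.

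Per kilobase of the canonical transcript, Filip1l was the highest of the 9 genes in stimulated CTL cells, at 47.2 CPM per kb (percentile 89.6 of the genes tested). Lrp5 (9.17), Dnm3 (8.58), Rgs12 (6.68) and Ptk7 (4.24 CPM per kb) followed, between percentiles 36.3 and 54.4. Celsr2 had 1.68, Ptpn14 0.852, Igsf9b 0.769 and Hspg2 0.150 CPM per kb, the last at percentile 0.214. In stimulated LIP cells Filip1l (30.3 CPM per kb) and Lrp5 (5.04) were again the highest and Hspg2 (0.0216) the lowest, and Rgs12 (3.30) and Ptk7 (1.54) stood above Dnm3 (1.22). Dnm3 thus moved from the third to the fifth place of the 9 between CTL and LIP cells.

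Transcript length was not used in the choice. All 9 genes were longer than the median of the genes tested on day 2 (3105 bases), Filip1l only slightly so (3253 bases), and their median was 5513. Of the 9, 4 (Igsf9b, Hspg2, Celsr2 and Ptpn14) were in the longest decile. Their GC content was above the median of 49.1% in 7 of the 9, with a median of 54.6%, and Ptk7, Celsr2, Lrp5 and Hspg2 were in the highest decile. Over all genes of these deciles the median log2 fold change of LIP against CTL on day 2 was -0.07 for length and -0.05 for GC content, and 3.15% and 4.07% were lower DEGs, against 2.09% of all genes.

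**Figure D4:**
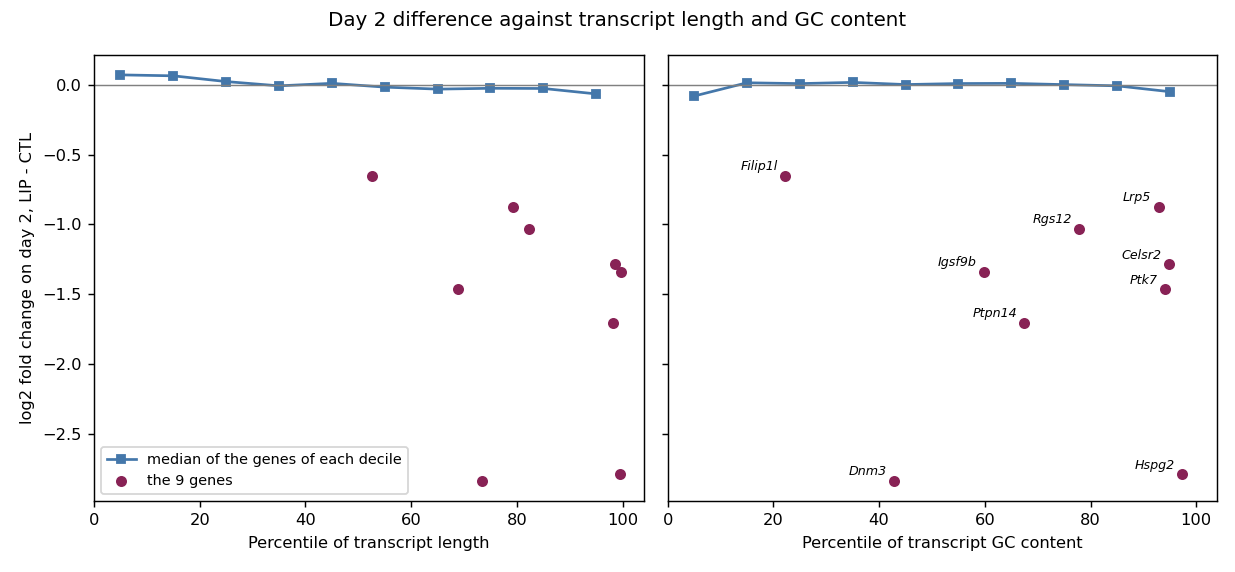
Log2 fold change of LIP minus CTL on day 2 (vertical axis) against the percentile of transcript length (left) and GC content (right) among the genes tested. Purple points are the 9 genes, which were chosen on the vertical axis and lie between -2.83 and -0.65. Blue squares are the medians of all genes in each decile and stay within 0.1 of 0.

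The closest relatives of the genes were not chosen on the comparison of day 2, so their values are given without a contrast to the 9. Of 10 relatives, 8 held enough counts on day 2, 4 of them higher and 4 lower in LIP cells, and none passed an adjusted p of 0.05 in edgeR, while 3 had an unadjusted p under 0.05 (16.5% of all genes had) and DESeq2 called 1. Without LIP 90, edgeR called 2 of the 8 (Rgs14 and Agrn). Lrp6, the other Wnt co-receptor, was at 132 CPM in CTL and 127 CPM in LIP cells (log2 fold change -0.06, SE 0.10, adjusted p = 0.797). The ubiquitous dynamin Dnm2 was at 174 and 175 CPM (log2 fold change 0.00, SE 0.15, adjusted p = 0.997), and the neuronal Dnm1 was at 1.75 and 1.38 CPM (-0.39, SE 0.50, adjusted p = 0.739). Celsr1, another polarity cadherin, was at 124 and 97.7 CPM with the groups apart (-0.36, SE 0.16, adjusted p = 0.301). Rgs14 and Agrn, relatives of Rgs12 and Hspg2, had log2 fold changes in the other direction, of 0.68 (SE 0.16, adjusted p = 0.131) and 0.70 (SE 0.27, adjusted p = 0.254). Igsf9 (-0.63, SE 0.39, adjusted p = 0.440) and Ptpn21 (0.23, SE 0.18, adjusted p = 0.561) did not pass the adjusted threshold, and Celsr3 and Filip1 were too weak to test. With stimulation, none of the 7 relatives tested on both days rose and 5 fell, namely Celsr1, Lrp6, Dnm2, Rgs14 and Igsf9 (adjusted p of 0.00956 or less).

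Of the planar cell polarity list, 14 of 22 genes were tested on day 2. The LIP level was lower in 11 and higher in 3, with a median log2 fold change of -0.28, and none was a DEG or passed an adjusted p of 0.05, while 1 (Celsr1) had an unadjusted p under 0.05. The Frizzled receptor gene Fzd3, with all LIP libraries below all CTL libraries, had a log2 fold change of -0.81 (SE 0.36, adjusted p = 0.307) and the core protein gene Vangl2, with overlapping groups, one of -0.61 (SE 0.29, adjusted p = 0.328). On day 0, 7 of 11 were higher and 4 lower in LIP cells, with none called by edgeR (3 at an unadjusted p under 0.05) or DESeq2. With stimulation 2 of the 11 tested on both days rose and 8 fell. Ryk, a Wnt receptor related to Ptk7 as a kinase without activity, rose by 3.04 (SE 0.25, adjusted p = 6.96e-08), and Daam1, a formin of this branch, fell by 1.60 (SE 0.10, adjusted p = 3.01e-09).

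Among canonical Wnt genes, 22 of 32 were tested on day 2, of which 15 were lower and 7 higher in LIP cells (median -0.11). None was a DEG or passed the adjusted threshold, and 2 had an unadjusted p under 0.05. These were Bcl9l, a co-activator of β-catenin (log2 fold change -0.43, SE 0.14, adjusted p = 0.196), and Axin2, a feedback inhibitor that is itself a Wnt target (0.52, SE 0.22, adjusted p = 0.285). With stimulation 5 of the 19 tested on both days rose and 12 fell. Among these, Axin2 fell by 2.14 (SE 0.14, adjusted p = 4.61e-09), and Tcf7, which encodes TCF1, fell by 1.85 (SE 0.08, adjusted p = 1.11e-10). On day 0 neither edgeR nor DESeq2 called any of 20 (2 had an unadjusted p under 0.05), with 8 higher and 12 lower.

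**Figure D5:**
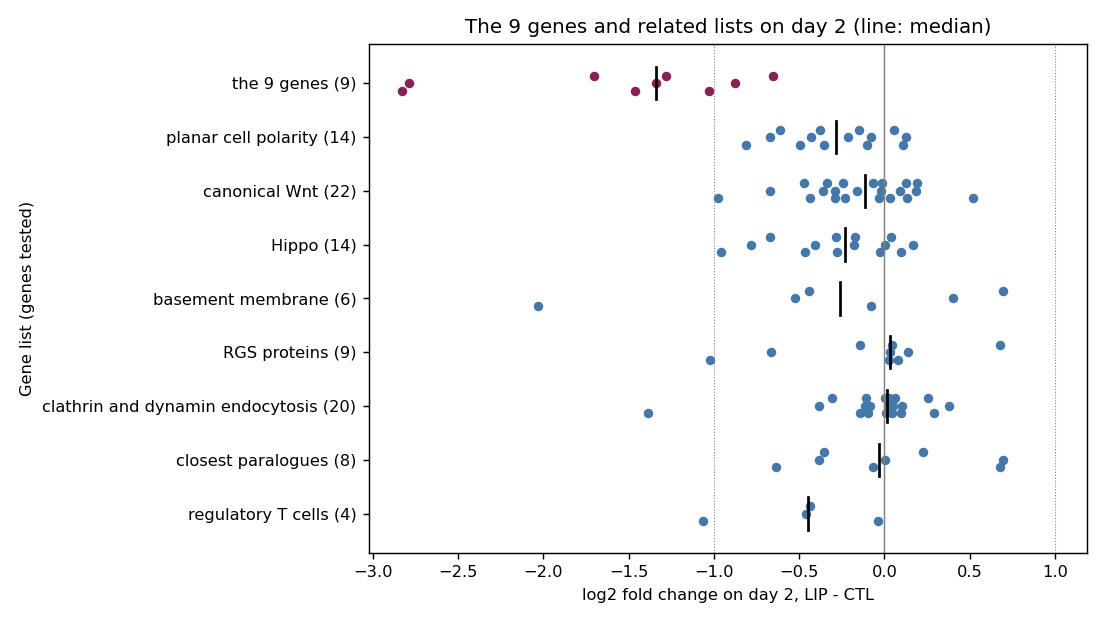
Log2 fold change of LIP minus CTL on day 2 (horizontal axis) for the 9 genes (purple) and for the tested genes of related lists (blue; number of genes in brackets), with the median as a line and dotted lines at -1 and 1. The 9 genes were chosen on this axis; the medians of the other lists run from -0.45 to 0.03.

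The lists around the other genes were mixed on day 2. In the Hippo list, to which Ptpn14 is linked, 10 of 14 were lower in LIP cells (median -0.23, no DEG). The kinase gene Lats2 had a log2 fold change of -0.41 (SE 0.14, adjusted p = 0.207) and Wwc2 one of -0.96 (SE 0.39, adjusted p = 0.277), both with an unadjusted p under 0.05. Yap1, the effector, had means of 0.0904 CPM in CTL and 0.135 CPM in LIP cells when fresh and of 7.94 and 5.08 CPM after stimulation, and was too weak on day 0 for a test on both days. Basement membrane genes were mostly too weak, with 6 of 18 tested and 4 lower in LIP cells. Of these Col18a1, the precursor of endostatin and like Hspg2 a heparan sulfate proteoglycan, was a lower DEG at 4.12 CPM in CTL and 1.00 CPM in LIP cells (log2 fold change -2.03, SE 0.33, adjusted p = 0.0997). Among RGS genes 3 of 9 were lower and 6 higher (median 0.03). Rgs3 was at -0.67 (SE 0.11, adjusted p = 0.0997) and Rgs14, as given above, at 0.68, each with its groups apart. In the clathrin and dynamin list 8 of 20 were lower, with a median of 0.02 and 1 lower DEG, Sh3gl3, an endophilin (-1.39, SE 0.42, adjusted p = 0.182). In edgeR none of these lists, nor the polarity and Wnt lists, held a gene past an adjusted p of 0.05 on day 2, and DESeq2 called 1 basement membrane gene and 2 RGS genes. Without LIP 90, edgeR called 1 of 17 Hippo genes lower, 2 of 6 basement membrane genes lower and 1 higher, 3 of 10 RGS genes lower and 1 higher, 2 of 23 canonical Wnt genes lower and 1 higher, 1 of 20 clathrin and dynamin genes higher, and none of 14 polarity genes. Over all 14453 genes tested without LIP 90, 895 (6.19%) were called lower and 1119 (7.74%) higher.

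To describe their shared pattern, the log2 CPM of each of the 9 genes was standardised over the 12 libraries and averaged. Single genes correlated with that mean by Pearson's r between 0.385 (Ptpn14) and 0.959 (Celsr2), with Dnm3 at 0.941, Hspg2 at 0.923 and Igsf9b at 0.436. The points share libraries, groups and depth, so the correlations are descriptive. Each of the 9 genes is also a part of that mean, which raises its r. The choice of the genes put LIP below CTL on day 2 in the mean, and favours this in any gene like the mean. Over the 12 libraries, the 10 other genes most like it were Gdpd5 (r = 0.955), Scg2 (0.955), Mfge8 (0.954), Hebp2 (0.944), Rnf169 (0.944), Gtf3c1 (0.941), Micall2 (0.940), 2900052L18Rik (0.940), Zdhhc23 (0.939) and Eng (0.935). The pattern they match is high in stimulated CTL cells and lower elsewhere: Eng, which encodes the TGF-β co-receptor endoglin, had means of 1.21 and 1.19 CPM in fresh CTL and LIP cells, and of 13.1 (SD 1.31) and 3.09 CPM (SD 0.485) in stimulated ones. Mfge8, a secreted protein that bridges phosphatidylserine and integrins, had means of 7.53 and 5.49 CPM on day 0 and of 22.5 (SD 5.40) and 9.51 CPM (SD 1.45) on day 2. Scg2, Hebp2, Micall2 and 2900052L18Rik were near 0 in fresh cells and had means below 3 CPM in all groups.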

How the data were processed

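Splenic CD4+ T cells gave 12 RNA libraries, 3 for each of CTL and LIP on day 0 and day 2, assigned by sample title. The authors deposited expected counts for each gene (RSEM 1.3.0 with Bowtie2, GRCm39, not normalized), after FastQC 0.11.9 and trimming with Trimmomatic (0.38 in the submitters' processing notes). The authors' tables of normalised signal, fold changes and p-values were used for gene symbols only, and 2 value columns of libraries without a label were not used. Expected counts (73267 were not whole) were rounded. In R 4.3.3, edgeR 4.0.16 (filterByExpr, TMM, quasi-likelihood test, Benjamini-Hochberg over all genes tested) was fitted for each day, and on all 12 libraries for day 2 against day 0. CPM used the TMM factors of the 12 libraries.

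The 9 genes, the gene lists, the tests and the alternatives were chosen with earlier results of these data known. Named genes were the 9, their closest relatives, in each list the genes with the smallest p (up to 3), and the 10 genes most correlated with their mean, and for day 2 against day 0 examples were chosen after their values were seen. Positions and lengths came from GENCODE M39, for 54749 of 55414 records. Of 224 list symbols, 223 were matched. Scripts were tested on simulated data. Alternatives were RLE and upper-quartile normalization, other count filters, DESeq2 1.42.0, offsets for GC content or length, a joint fit, leaving out each library and, added after seeing the data, a block for the antibody in the treatment label. Figures used Python 3.11.15 with matplotlib 3.10.9.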

Additional observations from a re-analysis of the deposited data

How the results depend on the processing

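No analysis paired by library number was run, because CTL and LIP shared only 1 number on each day (94 on day 0, 97 on day 2). Neither CTL nor LIP shared a number between its days. LIP day 0 and CTL day 2 shared 92 and 93, and both enter the contrast of the days, where the numbers were not used. The antibody that the treatment label names as a block, an alternative added after seeing the data, gave 311 lower DEGs on day 2, 0 genes with an adjusted p under 0.05 and the same direction for the 9 genes. For LIP against CTL on day 2, which chose the genes, a kept direction is no support. Under the alternatives all 134 values of the 9 genes kept their direction. They moved by less than 1 pooled SD of the log2 CPM of the libraries within a group. Of these, Dnm3 ranged from -3.23 (without LIP 90) to -2.44 (without LIP 96) with 1 library left out, moves larger than its SE. In stimulation, 148 values kept direction and call, 18 lost the call (Hspg2, Ptpn14 and Filip1l), 1 gained it and 1 changed sign (Igsf9b, 0.13 with a length offset). On day 0, 79 values kept both, 3 of Filip1l gained a call and 8 near 0 changed sign. Those of Rgs12 were -0.00485 with RLE normalization, -0.024 with a GC offset, -0.0060 with a length offset and -0.00081 in the joint fit, and leaving out 1 library gave -0.25 to 0.23 for Rgs12 and -0.21 to 0.066 for Ptpn14. The cause was not tested.

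Counts moved more. On day 0, 60 genes passed an adjusted p of 0.05, against 645 with no filter, 206 in DESeq2, 12 in the joint fit and 13 to 658 with 1 library left out (658 without CTL 94), and of the 9 genes 0 passed, against 1 with no filter, 1 in DESeq2 and 0 to 1 with 1 library left out. On day 2 there were 293 lower DEGs, against 600 with no filter, 151 with at least 10 counts in every library and 221 to 564 with 1 library left out (564 without LIP 90, 466 without CTL 97). With edgeR 0 genes passed an adjusted p of 0.05 on day 2 (2322 at an unadjusted p under 0.05), against 662 with no filter, 1 with at least 10 counts, 489 in DESeq2, 775 in the joint fit and 0 to 2014 with 1 library left out (2014 without LIP 90). In stimulation, the calls of rising genes numbered 7 with Ptk7 and Hspg2 included, against 5 under upper-quartile normalization and 4 with at least 10 counts in every library, which keeps fewer genes. The call of Hspg2 was lost in 11 of the alternatives, among them upper-quartile normalization, no filter, the GC offset and DESeq2 (adjusted p = 0.146, 0.0933, 0.0858 and 0.0964). The 1 that fell became 2 under upper-quartile normalization, 0 with a length offset and 0 to 1 with 1 library left out. Depth limited Hspg2 (at most 23 counts in a library) and Ptk7 on day 0 (at most 2).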
